A study of Synthetic plasmid and Mus musculus with 4 samples.

Results

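The constructs described here carry mouse genomic fragments that cover only part of a target window of the B class, in a barcoded reporter library assayed in the cerebral cortex. A construct belonged to the set when its fragment overlapped a B window by fewer than 300 bases and its barcode had at least 10 counts in each of the 3 cortex DNA libraries. Of 45670 constructs in the library, 6044 carried such a fragment, and 5134 met the DNA minimum while 910 did not. Each window is 300 bases long, and the 3806 B constructs that met the same minimum and covered a whole window served as the reference. The rule used position and DNA counts and no RNA count.

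Fragments were sonicated genomic DNA of C57BL/6J mice, captured with biotinylated RNA baits and cloned into a barcoded vector. CD-1 mice received the library by stereotactic injection of adeno-associated virus (AAV) at 4 to 6 weeks of age, and GFP-positive cortex was microdissected 4 to 5 weeks later. RNA and DNA were taken from each of 3 animals, so each animal gave 1 replicate, and all 6 libraries shared a sequencing lane. The B class is read, from knowledge of the study, as DNase hypersensitive sites of brain, and the R, H and L classes as those of retina, heart and liver. The tables give only these letters, and barcode counts hold no endogenous transcript against which the cell makeup of the tissue could be checked.

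A reporter of this kind places a candidate cis-regulatory element, a stretch of DNA that transcription factors bind, near a transcribed barcode. RNA from a barcode, relative to its DNA, reports how strongly the fragment drove transcription in the cells that received it. DNase hypersensitive sites mark open chromatin, where such elements often lie, and their factor binding sites are usually clustered within a short core. Fragments that cut a window at different places therefore report which stretches of it are enough for activity in the reporter.

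Barcodes of fragments from the 4 targets with the most active whole-window constructs are shown because they tie each compared fragment to its counts. For each target they are the whole-window construct and the partial constructs to the left and right with the most DNA counts, and B272 had no partial construct to the right. The B793 right part lacks the right end of its window, as the B793 left part does, because side is set by where a fragment starts. They are written as the construct table gives them, with no capitals because no base of a barcode carries a result.
B793 full: tttgggtgctgagca
B793 left part: cactgcacccagctc
B793 right part: ggagcatcctcctcc
B880 full: ttcgcttctgtcgcc
B880 left part: ggaccccccccctgt
B880 right part: gactattctggcact
B701 full: tgctaacagctaaac
B701 left part: ccctcgggtggttag
B701 right part: gcataagcataggct
B272 full: gccgcgcaaccatgc
B272 left part: gaataggctgcggtt

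Left and right give a fragment's start relative to the median start of the target's whole-window constructs on the reference strand. On build mm9, counted from 1, the B880 right part spans chr17:73621332-73621736 and holds 274 bases of the window at chr17:73621306-73621605, and it lacks the left end. Its RNA/DNA ratio, the share of a library's RNA counts divided by the share of its DNA counts, was 122, 62.2 and 87.4 in the 3 animals. The B880 left part at chr17:73621056-73621437 holds 132 bases and had ratios of 0.518, 0.733 and 1.29. The B880 full construct at chr17:73621074-73621655 had ratios of 13.1, 21.8 and 30.7. The 3 fragments of one site were ordered right part, full, left part in every animal.

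The 5134 members came from 726 of the 828 B targets. A target had a median of 4 members and at most 62, and 152 targets had 1 member. Fragments were 180 to 683 bp long with a median of 453 bp, against 483 bp for whole-window fragments, and held a median of 232 window bases, the lowest being 4. They carried a median of 232 bp from outside the window, against 184 bp for whole-window fragments. There were 259 members with under 100 window bases, 1478 with 100 to under 200 and 3397 with 200 or more, none of them with all 300. On the left lay 2234 members, all lacking the window's right end. On the right lay 2705, of which 2562 lacked the left end, 136 the right end and 4 both ends, while the window of 3 could not be inferred. The remaining members comprised 7 that started at the median and 188 in 99 targets without any whole-window construct. Members of one target share sequence, so they are not independent replicates, and conditions were compared over animals.

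Over constructs meeting the DNA minimum, the RNA libraries held 3944389, 5192503 and 9517930 counts and the DNA libraries 3967301, 10626979 and 7970433. Members had a median of 386 DNA counts over the 3 animals. A member had RNA in a given animal in 64.3% ± 5.86 (SD, n = 3) of cases, and 11.2% of members had no RNA count in any animal, so a low ratio of a single construct is poorly resolved at this depth. Barcode reads were counted without molecular identifiers, so floors below cover counting error only. Intervals below treat each construct or sum as independent, and they do not measure spread between animals.

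The members as a whole drove RNA at ratios of 1.73, 1.59 and 1.78, with a mean of 1.70 ± 0.10 (SD, n = 3 animals). Whole-window B constructs had ratios of 1.64, 1.54 and 1.62, with a mean of 1.60 ± 0.05. The pooled partial constructs were higher in 3 of 3 animals, by 0.09 ± 0.05 on the log2 scale, and without the target B662, described last, by 0.01 ± 0.05, higher in 1 of 3. Set against the whole-window constructs of its own target, the mean member was lower in 3 of 3 animals, with log2 differences of -0.26, -0.33 and -0.31 (4586 members in 487 targets). The direction therefore depended on whether counts were pooled or matched by target. The exact two-sided sign-flip test used for groups of constructs cannot give a p below 0.25 with 3 animals, so that test cannot pass 0.05, and it gave 0.25 where all animals moved one way. Partial constructs of the R, H and L classes had mean ratios of 0.812, 0.815 and 0.781. The B members lay 2.09-fold, 2.09-fold and 2.18-fold above them, higher in 3 of 3 animals each time.

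Pooled ratios were highest in members that held 200 or more bases of the window. Members with under 100 window bases had ratios of 1.24, 0.94 and 1.15 (mean 1.11 ± 0.15). Members with 100 to under 200 bases had ratios of 1.37, 1.26 and 1.37 (mean 1.34 ± 0.06). Members with 200 or more bases had ratios of 1.92, 1.77 and 2.00 (mean 1.89 ± 0.12). The longest class was above both others in every animal. The order of the shorter 2 classes rested on 1 target: without B662 the members with 100 to under 200 bases had ratios of 0.99, 1.04 and 1.12 (mean 1.05 ± 0.06), below the shortest class in 2 of 3 animals. Relative to whole-window constructs the log2 differences were -0.54 ± 0.16, -0.26 ± 0.03 and 0.24 ± 0.05, lower in 3 of 3 animals for the first 2 classes and higher in 3 of 3 for the longest. Matched by target as single members, the longest class was instead lower in 3 of 3 animals, as given further on. Compared target by target over 565 B targets, the longest class differed from whole-window constructs by log2 -0.12, -0.11 and 0.09. Without the single construct with the most RNA in each group, the mean ratio was 1.23 for 100 to under 200 bases and 1.77 for 200 or more. Just inside the rule, the 478 members with 290 or more bases had ratios of 1.89, 1.63 and 1.67, against 1.64, 1.54 and 1.62 for the constructs with all 300.

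The excess of B over the other classes was largest for members with 200 or more bases. Members under 100 bases had a ratio 1.05-fold that of R constructs under 100 bases, higher in 2 of 3 animals (exact sign-flip p = 0.75). The same comparison gave 1.72-fold at 100 to under 200 bases and 2.32-fold at 200 or more bases, higher in 3 of 3 animals. Against H constructs the 3 classes gave 1.42-fold, 1.69-fold and 2.29-fold, and against L constructs 1.68-fold, 1.65-fold and 2.45-fold. Without B662 the middle class was 1.35-fold, 1.32-fold and 1.29-fold above R, H and L.

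Pooled over targets, members starting left of the reference were lower than those starting right. Mean ratios were 1.33 ± 0.05 on the left and 1.84 ± 0.13 on the right, a log2 difference of -0.47 ± 0.05 that was negative in 3 of 3 animals. It was -0.71 ± 0.30 under 100 bases, -0.23 ± 0.04 at 100 to under 200 and -0.48 ± 0.05 at 200 or more. Matched to their own target's whole-window constructs, the sides were close at 200 or more bases, with -0.16 ± 0.04 on the left and -0.18 ± 0.04 on the right. In targets with a called whole-window sum the matched values were lower on the right, at -4.03 ± 0.59 against -2.77 ± 0.50 for 100 to under 200 bases and -0.86 ± 0.20 against -0.62 ± 0.11 for 200 or more. Under 100 bases the matched means were lower on the left over all B targets. They were also lower there in the called targets, at -5.53 ± 0.57 against -5.05 ± 0.83. Over all B targets the means at 100 to under 200 bases were -0.59 ± 0.14 on the left and -0.46 ± 0.13 on the right. Pooled and matched values thus clearly differed in which side was lower only for called targets at 100 or more bases. Left and right refer to the genome and not to the direction of transcription in the reporter. Fragments on the plus strand had a mean ratio of 1.59 ± 0.13 and those on the minus strand 1.80 ± 0.09. The 188 members of targets without a whole-window construct had a mean ratio of 4.15 ± 0.89. Among these, the 56 with 100 to under 200 bases had 8.58 ± 2.21, but 6 members of B662 gave 89.8% ± 4.6 of their RNA. The other 50 had ratios of 0.66, 1.11 and 1.08, and without B662 all 181 members of such targets had 1.66 ± 0.13.

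A large share of the RNA came from few members. The construct with the most RNA, the B880 right part above, gave 5.04% ± 0.40 of member RNA from 0.10% of member DNA. The 10 highest gave 18.1% ± 1.5, and the 100 highest 43.3% ± 1.7 from 4.61% of the DNA, spread over 39 targets.

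In edgeR's quasi-likelihood test of RNA against DNA for each construct, 130 of the 5134 members passed an adjusted p of 0.05 with RNA above DNA, and 0 passed with RNA below DNA. In that direction 799 were at an unadjusted p under 0.05, DESeq2 called 1752, and edgeR with no replicate block called 765. The 130 are 2.53% of members (95% exact binomial interval 2.12% to 3.0%), against 0.665% of all constructs tested and 2.68% of the whole-window B constructs. The interval takes members as independent, although those of one target share sequence. Among R, H and L partial constructs 13 of 5614, 2 of 5468 and 1 of 6468 passed, or 0.232%, 0.037% and 0.015%. By length of window held, 3 of 259 members under 100 bases passed, 18 of 1478 at 100 to under 200 bases and 109 of 3397 at 200 or more, or 1.16%, 1.22% and 3.21%. The 130 lay in 47 targets, had RNA in all 3 animals, and had fitted log2 RNA/DNA of 1.79 to 6.87 with a median of 4.19. On this scale 0 is the level set by the scaling, and the median of all constructs was -3.36. With DESeq2, 482 members passed, and without animal 3, 85 did.

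The 20 highest of the 130 came from 9 targets, B880, B662, B376, B885, B645, B701, B517, B524 and B793, with mean ratios of 38.1 to 94.3. They held 89 to 297 window bases with a median of 233.5, and 13 held 200 or more, 6 held 100 to under 200 and 1 held fewer than 100. That split was close to the split of all 5134 members, with 3397, 1478 and 259 in these classes. Among the 20, the window's left end was missing in 11 and its right end in 9. Of the 20, 14 lay in targets whose whole-window constructs also passed the test as a sum.

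All 3 called members under 100 bases are named because they are few, and they were chosen after their values were seen. A B645 fragment at chr5:112750237-112750466, on the minus strand, held 89 bases at the right end of its window and had ratios of 49.5, 40.6 and 49.2. The fragment is 230 bp long, and its ratio differed little between animals. The other two, with 93 and 50 window bases of B634, had mean ratios of 17.1 ± 10.9 and 8.74 ± 2.24, and both reach a neighbouring window described further on.

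To use members too weak to be tested singly, counts were summed over the partial and over the whole-window constructs of each target. Of 574 B partial sums, 49 had RNA above DNA at an adjusted p under 0.05 (edgeR), or 8.54% (6.38% to 11.1%), against 2.12% of all sums tested. Of 516 whole-window B sums, 43 passed, or 8.33% (6.10% to 11.1%). Partial sums of R, H and L passed in 5 of 589, 2 of 616 and 0 of 745. Called B partial sums had log2 RNA/DNA of 0.96 to 6.06 with a median of 2.52, where the median of all sums was -0.24. Their 630 members gave 55.3% ± 1.9 of member RNA from 12.6% ± 0.08 of member DNA. These sums were chosen by RNA above DNA in the same libraries, so the RNA share is raised by the choice and is a description.

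Where both sums could be tested, in 441 B targets, 28 were called in both, 9 in the whole-window sum only, 8 in the partial sum only and 396 in neither. Passing in one sum and not the other does not show that the sums differ, which was tested separately and is given below. A further 13 targets had a called partial sum and too few whole-window constructs for a test.

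The difference between short and long overlaps was largest in the targets whose whole-window sum was called. These 43 targets had 378 whole-window constructs with ratios of 8.15, 6.91 and 7.72, and 41 of them held 516 members. The members with 200 or more bases had ratios of 8.85, 7.55 and 9.19 (mean 8.53 ± 0.87), those with 100 to under 200 bases 2.39, 2.86 and 2.94 (mean 2.73 ± 0.30), and those under 100 bases 1.23, 1.5 and 1.37 (mean 1.37 ± 0.14). The order of the 3 classes held in every animal, and the longest class was above the whole-window constructs in every animal. That last direction is of summed counts; the mean over single members matched by target, given next, was below the whole-window constructs. By single construct, 83 of 329, 8 of 157 and 1 of 30 were called, against 98 of 378 whole-window constructs. The choice of these targets used whole-window RNA, so the whole-window level is raised by the choice, and the values against it are a description.

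Each member was also set against the mean of its own target's whole-window constructs, on a log2 scale with a prior count of 2. In the called targets the difference was -6.11 for 1 to 49 window bases (5 members), -5.09 for 50 to 99 (25 members), -3.92 for 100 to 149 (60) and -3.01 for 150 to under 200 (97). It was -1.19 for 200 to 249 bases (135), -0.53 for 250 to 289 (162) and -0.15 for 290 or more (32). In the means over animals, every added stretch of window in the 7 length steps thus came with a smaller deficit. The widest step lay between 150 to under 200 and 200 to 249 bases. The order of the first 2 steps was reversed in animal 3 (-4.37, then -4.57), and that of the last 2 in animal 2 (-0.37, then -0.56). Over the broad classes the differences were -5.26 ± 0.72, -3.35 ± 0.28 and -0.76 ± 0.16, with all 3 animals below 0. Over all B targets they were smaller, at -0.68 ± 0.19, -0.52 ± 0.08 and -0.17 ± 0.03. These sizes depend on how constructs without RNA are treated, and with the authors' deposited log2 values they were -6.91, -4.56 and -0.98 in the called targets.

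Partial constructs can be compared with one another without the whole-window reference. In the 30 called targets with members in both classes, those with 100 to under 200 bases lay -2.76 ± 0.30 (log2, n = 3 animals) from those with 200 or more, lower in 27 targets and lower in all 3 animals in 19, and higher in all 3 animals in 0. In 12 targets, members under 100 bases lay -4.17 ± 0.92 from those with 200 or more, lower in 11. Over all 410 B targets with both classes, the first difference was -0.24 ± 0.15. In R, H and L targets the same difference was -0.14 ± 0.16, -0.06 ± 0.04 and 0.20 ± 0.09.

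The difference between the partial and the whole-window sum was then tested within each target, in an interaction that does not depend on the scaling of RNA against DNA. Of 441 B targets, 3 were lower in the partial sum at an adjusted p under 0.05, against 0.15% of all targets tested, and 2 were higher, against 0.2%. At an unadjusted p under 0.05, 35 were lower and 22 higher, against 99 and 88 of all 1998 targets tested. The median log2 difference was -0.17 over B targets and 0.11 over targets of other classes. No target passed when any one of the 3 animals was left out, although the log2 differences of the 5 kept their sign, ranging for instance over -2.94 to -2.64 in B83 and 3.81 to 4.28 in B352. DESeq2 called 36 lower and 23 higher. Without the construct with the most RNA in each sum, B83 alone was called lower (B272 and B701 had adjusted p of 0.0759 and 0.0745) and none higher.

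B272, at chr12:83205246-83205545, was the most extreme of the lower targets. Its 6 members held 81 to 142 bases at the left end of the window and had ratios of 0.56, 0.89 and 0.12, whereas its 3 whole-window constructs had 17.5, 22.5 and 31.6. The groups were far apart in every animal, and the log2 difference was -5.82 (SE 0.80, adjusted p = 0.0474, edgeR). No member held more than 142 bases, so the rest of the window was seen only in whole-window constructs. The barcode shown as B272 left part, with 114 bases, gave 1, 473 and 122 RNA counts on 493, 902 and 1218 DNA counts.

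B83, at chr14:28083046-28083345, had ratios of 12.6, 12.9 and 12.7 in its 11 whole-window constructs and 1.96, 1.40 and 2.09 in its 15 members. The log2 difference was -2.83 (SE 0.23, adjusted p = 0.00418). Its 8 members under 200 bases had a mean ratio of 0.70 ± 0.33 and its 7 longer ones 3.64 ± 1.16, and both groups lay below the whole-window constructs in every animal.

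B701, at chr15:80108866-80109165, had 60 members, with ratios of 9.62, 9.98 and 12.0, and 18 whole-window constructs, with 29.9, 20.9 and 22.2. The log2 difference was -1.20 (SE 0.17, adjusted p = 0.0474). The lower summed ratios lay with the short members. The 24 under 200 bases had ratios of 0.78, 2.39 and 2.73, and the 36 with 200 or more had 16.5, 14.9 and 17.5. These summed ratios did not overlap. Single constructs did, with log2 RNA/DNA of -6.02 to 3.01 under 200 bases and -4.97 to 5.78 at 200 or more. Of the 60, 52 started on the right, with a mean ratio of 9.31 ± 1.5, and 8 on the left, with 20.7 ± 5.9, but all 8 on the left held at least 226 bases.

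B352, at chr6:144966866-144967165, was higher in the partial sum, by 4.04 on the log2 scale (SE 0.23, adjusted p = 0.00073). One member of 254 bases, starting on the right, carried this, with ratios of 23.2, 13.9 and 22.6, while the other 3 members had a mean of 0.58 ± 0.84 and the whole-window constructs 0.92 ± 0.15. Without the construct with the most RNA in each sum the difference was -1.35 (adjusted p = 0.722). One construct thus set the direction of this target.

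B634, at chr9:108039446-108039745, was higher by 2.69 (SE 0.30, adjusted p = 0.0198). Of its 20 members, 12 reach the window of B885, at chr9:108039906-108040205, and hold 116 to 300 bases of it. These 12 had ratios of 6.52, 3.51 and 8.35, the other 8 had 0.92, 0.86 and 1.83, and the 7 whole-window B634 constructs, none of which reach B885, had 0.86, 0.44 and 0.64. Members that reach B885 were above both other groups in every animal. B885 is itself one of the most active targets, with ratios of 18.4, 13.3 and 20.1 in its whole-window constructs. In a test added after the data were seen, leaving out every construct that reaches another target's window brought the B634 difference to 0.86 (adjusted p = 0.686). Over all targets 81 members reached another window, and 2 of these were called, both in B634. That share was close to the 2.53% called among all members, where 0.665% of all constructs were called.

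With the partial sum limited to members under 200 bases, the whole-window sum was higher in more targets. Of 271 B targets, 11 were lower in the partial sum, against 1.28% of all targets tested, and 1 was higher, B634, against 0.16%. Among 976 targets of the other classes 5 were lower and 1 was higher. The 11 were B272, B83, B701, B781, B768, B883, B813, B902, B951, B793 and B598, with adjusted p between 0.00976 and 0.0445 and log2 differences of -1.98 to -5.82. The whole-window sum of each was called as active. In B902, at chr2:149699106-149699405, the low values were those of the short members. Its 4 under 200 bases had ratios of 2.36, 5.26 and 1.79, its 6 longer ones 14.4, 9.65 and 14.4, and its whole-window constructs 13.8, 15.4 and 12.2.

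Members under 200 bases were also tested against members with 200 or more bases, a comparison added after the data were seen. Of 263 B targets, 3 were lower under 200 bases, against 0.322% of all targets tested, and 0 were higher, against 0.0%. At an unadjusted p under 0.05, 42 were lower and 5 higher, against 110 and 36 of all 1244 targets tested. The 3 were B880 at -3.16 (adjusted p = 0.00264), B701 at -3.23 (adjusted p = 0.0405) and B583 (adjusted p = 0.0405). In B583, named because the count is small, the 3 members under 200 bases had no RNA count in any animal, and the 4 longer ones were at least 385-fold higher against a floor of 3 RNA counts over the 3 libraries. One member that lacked only the last base of its window gave 97.6% of that RNA.

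Among the 12 most active targets with at least 3 members, partial constructs ranged from inactive to as active as the whole window. In B880 the 15 members had ratios of 43.8, 27.5 and 35.2 and the 7 whole-window constructs 22.9, 26.4 and 25.9, a log2 difference of 0.48 (SE 0.28, adjusted p = 0.645). B793, at chr9:107863646-107863945, had 22.3, 13.9 and 19.2 in its members and 30.9, 23.7 and 22.2 in its whole-window constructs, lower in every animal but not past the threshold (adjusted p = 0.409). Here too the 7 members under 200 bases were lower, with a mean ratio of 5.63 ± 1.59 against 21.8 ± 5.2 for the 8 longer ones.

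In B645, at chr5:112750026-112750325, the partial sum was also active, and 3 of 9 members were called. Its members had summed ratios of 15.8, 15.3 and 13.8, and its whole-window constructs 32.5, 15.6 and 17.8. A single member of 217 bases gave 10495, 9183 and 18581 of the members' 14384, 14502 and 26805 RNA counts. The median log2 RNA/DNA of single constructs was -0.63 in the members and 2.74 in the whole-window constructs. B885, with 23 members and a mean ratio of 11.4 ± 1.3 against 17.3 ± 3.5, and B620, with 4 members and 8.89 ± 2.02 against 16.6 ± 9.8, did not differ past the threshold between sums either. The remaining members of the 12, B768, B813 and B883, had partial ratios of 4.19 ± 1.33, 4.20 ± 0.79 and 4.63 ± 1.12, against 10.99 ± 4.4, 9.85 ± 0.98 and 9.30 ± 1.68 for the whole window. All 12 whole-window values are raised by the choice of these targets.

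Some targets differed between members on the left and right. These were compared within 247 B targets. Of these, 2 were higher on the left, against 0.26% of all targets tested, and 5 were lower, against 0.779%. At an unadjusted p under 0.05, 15 were higher and 27 lower, against 59 and 92 of all 1156 targets tested. None of the 7 called targets passed with any one animal left out, although each kept its sign. Log2 differences ranged over -2.94 to -2.60 in B880 and 1.84 to 2.17 in B410.

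In B880, the 11 members on the left had ratios of 11.8, 6.17 and 10.8 and the 4 on the right 82.9, 51.6 and 56.2. The log2 difference was -2.76 (SE 0.19, adjusted p = 0.00307). Of the 4 on the right, 2 lack the left end and 2 the right end, and with sides set by the missing end, a choice made after the data were seen, the difference was -2.33 (adjusted p = 0.0101). Length of window was not equal between the sides, since the right members held 213 to 274 bases and the left ones 94 to 264, and 1 left member of 257 bases, at chr17:73621056-73621562, had ratios of 193, 37.9 and 52.1. In B645, 3 members on the left, with 156 to 271 bases, had ratios of 1.88, 1.12 and 0.38, and 6 on the right, with 89 to 296, had 21.7, 24.6 and 21.2. The log2 difference was -4.58 (SE 0.53, adjusted p = 0.0174, edgeR), and the fragment of 89 bases described above lies on the active side. The B645 member of 217 bases that gave most of the RNA also lies on that side. The median log2 RNA/DNA of single B645 members was -1.79 on the left and 2.82 on the right.

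B922 and B410 went the other way. In B922, at chr8:4256966-4257265, 3 members on the left had ratios of 18.3, 29.6 and 25.9 and 4 on the right 3.27, 3.23 and 4.40, a log2 difference of 2.75 (SE 0.35, adjusted p = 0.0215). The left members held 228 to 288 bases and the right ones 120 to 219, so side and length cannot be told apart there. In B410, at chr2:59439066-59439365, 5 members on the left had ratios of 13.1, 15.5 and 14.0 and 16 on the right 2.76, 3.67 and 4.66, a log2 difference of 1.97 (SE 0.22, adjusted p = 0.0129). Here the left members were also above the whole-window constructs, which had 2.63, 2.48 and 3.27. The left members held 219 to 296 bases and the right ones at least 93, and without the construct with the most RNA in each sum the difference was 0.95 (adjusted p = 0.32).

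The other 3 targets lower on the left had weak sums. In B118, at chr11:6852866-6853165, 4 members on the left had a mean ratio of 0.19 ± 0.02 and 29 on the right 1.13 ± 0.33 (log2 difference -2.55, SE 0.40, adjusted p = 0.0426). The 3 left members of B787 and the 2 of B26 had no RNA in any animal. Against a floor of 3 RNA counts over the 3 libraries, the right members were at least 137-fold higher in B787 and at least 63.98-fold higher in B26, although their own mean ratios were only 0.86 ± 0.42 and 0.83 ± 0.18. None of these 3 targets had a called sum.

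Some activity lay in targets that could not be compared with a whole window. B662, at chr15:91444486-91444785, had no whole-window construct and 7 members, all lacking the left end. The 6 with 102 to 169 bases had ratios of 72.2, 38.7 and 47.0, and all 6 were called. The seventh held 277 bases and had 10, 0 and 0 RNA counts on 29, 153 and 97 DNA counts. The fragment with the most window bases was thus the least active in this target. The 6 active fragments extend 279 to 384 bp past the right end of the window, and the fragment of 277 bases extends 87 bp past it. Among the 6, the fragment at chr15:91444642-91445064 had ratios of 69.7, 51.2 and 86.3. B524 was in the same position, and its member at chr5:114041726-114042022, which held 277 bases and lacked the right end, had ratios of 47.8, 34.4 and 49.8. In targets without any whole-window construct, 11 of 188 members were called (5.85%), and 6 of these were in B662. All called members in targets without a called whole-window sum numbered 38 of 4618 (0.82%), in 20 targets. That share was near the 0.665% of all constructs tested. These 38 also include members of targets whose whole-window sum was tested and not called, such as B634.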

How the data were processed

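RNA and DNA barcode counts of single constructs are whole numbers that the authors deposited without normalization, per the file headers. Their deposited log2 values are log2 of the RNA share over the DNA share plus 0.001, and were recomputed from the counts within 5e-10. The submitters' processing notes list mapping and quality tools (Bowtie2 2.1.0, FastQC, bedtools 2.22.1, SAMtools 0.1.19) and build mm9 without saying what each was used for. Barcodes, positions, overlaps and targets come from the authors' construct table, of which 2 identical copies exist and 1 was used.

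Starts were converted to count from 1, and windows of 300 bases were inferred from starts, ends and overlaps; for 47 members they could not be. The median start was taken over all whole-window constructs of a target in the construct table. Ratios use library totals over constructs with at least 10 counts in each DNA library. Group values are summed counts. Matched differences used a prior count of 2 and targets with at least 2 whole-window constructs.

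RNA against DNA was tested with edgeR 4.0.16 (R 4.3.3; quasi-likelihood, TMM, Benjamini-Hochberg over all classes, threshold 0.05) with the animal as a block, since RNA and DNA came from the same animal per the labels. Deviations of same-animal libraries correlated between -0.020 and 0.013 over all constructs, so the block rests on the labels. Sums needed at least 2 constructs. Interaction fits used 12 columns, 2 sums in each of 6 libraries, with the library as a block. The fits were tested on simulated counts. Alternatives were DESeq2 1.42.0, other scalings, count and construct minimums, no block and leaving out an animal. Python 3.11.15, numpy 2.4.6, scipy 1.17.1 and pandas 2.3.3 were used elsewhere.

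Named targets were the 12 with the highest called whole-window log2 and at least 3 members, those called in part minus whole-window (up to 10 per direction) or left minus right (up to 5 per direction), and the 20 highest called members with RNA in all 3 animals. Targets named outside this rule, such as B902 under 200 bases, B583, B662 and B524, were picked with their values in view. The members, groups and named targets were chosen with earlier results of these data known. No genome sequence was used here, so fragments are given by barcode and position.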

Additional observations from a re-analysis of the deposited data

How the results depend on the processing

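The number of members called one by one was 482 with DESeq2 and 207 with no replicate block (pairing of RNA and DNA by animal), and ranged from 85 to 138 with an animal left out. Called partial sums numbered 91 with DESeq2 and 30 to 44 with an animal left out, and whole-window sums 72 and 31 to 39. Partial minus whole-window sums were called lower in 36 targets with DESeq2, 5 with no replicate block, 1 with at least 3 constructs in each sum, 1 without the construct with most RNA of each sum, 11 with members under 200 bases and 1 without constructs reaching another window. They were called higher in 23 with DESeq2, 0 with at least 50 DNA counts, 0 without the top construct, 1 under 200 bases, 0 for under 200 against 200 or more bases and 1 without constructs reaching another window. Left against right gave 13 targets higher and 26 lower on the left with DESeq2, 4 and 10 without the pairing block, 5 and 12 without the top construct, and 3 lower with at least 50 DNA counts. With any one animal left out, 0 targets passed in either direction in all 4 of these counts. Setting sides by the missing window end, chosen after seeing the data, gave 2 and 5. With no replicate block, 765 members were called with RNA below DNA against 0 with it; the counts of called sums and of targets higher in the partial sum stayed within 1.5 times.

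Without the top construct the B272 partial sum changed sign to 0.13 (adjusted p = 0.968, edgeR), B352 part minus whole-window to -1.35, and the group ratios were 1.23 (100 to under 200 bases) and 1.77 (200 or more). Without B662, chosen after seeing the data, the ratio at 100 to under 200 bases was 1.05. With an animal left out these ratios ranged over 1.05 to 1.19, 1.32 to 1.37, 1.84 to 1.96 and 1.58 to 1.63 for under 100, 100 to under 200, 200 or more and 300 bases. Matched log2 differences over all B targets were -1.07, -0.71 and -0.22 with the authors' log2, -0.89, -0.43 and -0.086 with each target weighted equally, -0.60 (100 to under 200) with prior count 0.5, and -0.42 and -0.13 (100 to under 200, 200 or more) with at least 50 DNA counts. In called targets they were -6.91, -4.56 and -0.98 with the authors' log2, -5.98 and -3.86 with prior count 0.5, and -6.22 (under 100) with at least 50 DNA counts. Leaving out an animal gave -0.79 to -0.62, -0.56 to -0.48 and -0.19 to -0.15 over all B targets, and -5.62 to -4.91, -3.51 to -3.23 and -0.83 to -0.67 in called ones. The cause of these changes was not tested, other than that fewer constructs or animals enter some fits. Depth limits single constructs, of which 11.2% had no RNA, and 3 animals limit every comparison of groups.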

Other observations

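The same constructs were also assayed in retina kept in culture for several days, in 3 replicates. Each retina replicate was made from several retinas, whereas each cortex replicate came from a single animal. There 4761 B partial constructs met the DNA minimum and had a mean RNA/DNA ratio of 0.093 ± 0.010 (SD, n = 3 replicates), against 0.085 ± 0.002 for whole-window B constructs. Partial H and L constructs had 0.074 ± 0.006 and 0.069 ± 0.011, and partial R constructs 3.05 ± 0.02. Of 545 B partial sums, none was above the highest of 1314 H and L partial sums in all 3 replicates. Those highest values were 4.89, 8.01 and 6.80, far above the H and L group means. A B sum with moderate activity would not pass them, so the comparison cannot show that B partial sums were inactive in retina. Ratios are shares within a tissue's libraries, so they are not compared between retina and cortex.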
